A study of Mus musculus with 6 samples.

Results

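The genes described here are the ligands and receptors of the platelet-derived growth factor (PDGF) family, measured by RNA sequencing in mouse kidney glomeruli. They are the 6 genes named Pdgfa, Pdgfb, Pdgfc, Pdgfd, Pdgfra and Pdgfrb, taken by symbol from 24035 named genes, and all 6 were among the 13912 genes that passed a filter on low values (a mean of at least 0.5 RPKM). RPKM are reads scaled by gene length and by library depth. The 3 control libraries came from mice of genotype Klf4 fl/fl and the 3 knockout libraries from mice of genotype Podocin-Cre Klf4 fl/fl, all on the FVB/N strain. Both groups carry floxed Klf4, a zinc-finger transcription factor gene. Only the knockout group carries Cre, driven by the podocin promoter, which is active in podocytes, and no group carried Cre without floxed alleles. Ages were not stated in the labels, and the labels do not say whether each library is a separate animal, so p-values measure the spread between libraries, which may be partly technical. Glomeruli were isolated with a magnet after perfusion with iron oxide and collagenase digestion, so the RNA is from all cells of the preparation. Values of single libraries are listed in the order of replicates 1, 2 and 3.

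PDGF ligands are secreted dimers that pair and activate tyrosine kinase receptors. PDGF-A and PDGF-C act mainly through the alpha receptor (Pdgfra), PDGF-B binds both receptors, and PDGF-D acts mainly through the beta receptor (Pdgfrb). PDGF-A and PDGF-B are cut inside the cell by furin-like convertases, whereas PDGF-C and PDGF-D are secreted with a CUB domain that extracellular proteases must remove. In the glomerulus, PDGF-B made by endothelial cells and the beta receptor of mesangial cells are needed for mesangial cells to populate the capillary tuft.

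The counted reads ranged from 38936993 to 58272424 per library, and the correlation of log2 values was 0.969 to 0.981 within groups and 0.891 to 0.949 across them. Klf4 measured 21.5, 44.3 and 49.8 RPKM in the 3 controls against 29.4, 40.3 and 41.4 RPKM in the 3 knockouts (log2 change 0.015, SE 0.31, limma adjusted p = 0.979). The values overlapped, and since cells other than podocytes keep the gene, they do not check the labels. The defining markers of podocytes, mesangium and endothelium were present in every library, with none of the listed markers at 0 in all libraries.

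Of the members, Pdgfa rose and Pdgfc fell in knockout glomeruli, and the other 4 did not pass the test. Pdgfa was 1.76-fold higher in the knockout mean, and Pdgfc was 1.90-fold higher in the control mean. The receptors Pdgfra and Pdgfrb had lower knockout means with adjusted p of 0.0835 and 0.132, and Pdgfb and Pdgfd had intervals that spanned 0. In such bulk RNA, fewer cells of a type and less RNA per cell cannot be told apart. Across all tested genes 13.5% were called, 9.98% as higher and 3.48% as lower.

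The start regions of the 2 called members are shown because these genes moved in opposite directions. RefSeq windows on GRCm38.p6 run from 250 bases before a gene's start to 50 bases after it, and 4 of the 6 members had one. Pdgfa has a pair of windows, chr5:138994232-138994531 and chr5:138994895-138995194 on the minus strand, and Pdgfc has chr3:81036166-81036465 on the plus strand. The Pdgfa gene as GENCODE draws it starts farther upstream, so the start sites of its windows lie 3089 and 2426 bases inside it, whereas that of Pdgfc is the GENCODE start. Capitals mark CACCC, the core letters of sites that KLF proteins bind, or its complement GGGTG.
Pdgfa, first window: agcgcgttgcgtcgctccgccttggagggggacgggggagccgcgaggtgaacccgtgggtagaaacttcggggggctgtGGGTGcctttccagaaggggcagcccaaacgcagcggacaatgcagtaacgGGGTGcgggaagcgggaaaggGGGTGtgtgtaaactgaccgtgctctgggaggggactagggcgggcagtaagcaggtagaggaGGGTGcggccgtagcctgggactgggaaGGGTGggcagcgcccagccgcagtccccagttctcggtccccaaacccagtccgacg
Pdgfa, second window: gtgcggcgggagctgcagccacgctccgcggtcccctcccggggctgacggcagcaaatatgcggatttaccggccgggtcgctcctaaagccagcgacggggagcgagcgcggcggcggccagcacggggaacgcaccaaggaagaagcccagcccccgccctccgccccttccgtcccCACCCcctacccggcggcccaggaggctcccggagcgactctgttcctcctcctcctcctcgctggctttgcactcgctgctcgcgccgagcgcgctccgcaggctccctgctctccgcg
Pdgfc: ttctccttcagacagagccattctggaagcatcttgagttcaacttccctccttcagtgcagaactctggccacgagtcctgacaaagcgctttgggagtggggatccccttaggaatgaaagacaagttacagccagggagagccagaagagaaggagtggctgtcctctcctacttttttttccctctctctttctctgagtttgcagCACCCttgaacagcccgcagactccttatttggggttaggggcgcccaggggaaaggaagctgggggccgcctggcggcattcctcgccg
The first Pdgfa window held 5 matches, at -170, -119, -98, -35 and -7 bases from the start site of that window, all as GGGTG. The second held 1 match at -70, and the Pdgfc window held 1 at -40. The window of Pdgfra held 2 and that of Pdgfd held 0. These letters are common, since 57.5% of all 32851 RefSeq windows hold at least 1 match on either strand. TGANTCA, the AP-1 motif, and TTCNNNGAA, the STAT motif, were searched on both strands and had 0 matches in the 5 windows of the members, against 7.81% and 8.30% of all windows with at least 1. A match is a run of letters and no measure of binding.

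Pdgfa encodes PDGF-A, which signals through the alpha receptor. The gene lies on chromosome 5 from 138976014 to 138997370 on the minus strand (GENCODE M21, GRCm38). Its level was 18.8, 23.9 and 23.1 RPKM in the 3 controls against 33.5, 42.2 and 40.0 RPKM in the 3 knockouts. Every knockout library was above every control library, as for 23.7% of all tested genes. The means were 21.9 ± 2.73 and 38.6 ± 4.55 RPKM (SD, n = 3 libraries per group), and the log2 change was 0.80, with a 95% interval from 0.46 to 1.14 (SE 0.15, limma adjusted p = 0.0146). The call was lost without knockout replicate 2 (log2 change 0.73, adjusted p = 0.0692), and the adjusted p over 15 alternatives ranged from 0.0145 to 0.0692. Whether counting used strand is not stated, so reads of an opposite-strand gene that overlaps counted exons cannot be told apart from those of a member. Such a gene is annotated at Pdgfa (6330403L08Rik, from 138995056 to 139000577), at Pdgfc (Gm16000, from 81037408 to 81040437) and at Pdgfb (Gm41361, from 80012331 to 80042457), and 2 lie at Pdgfra (Gm42802 and Gm42803). At Pdgfa it lies upstream of the start sites of both RefSeq windows (138994281 and 138994944). It therefore overlaps only exons that GENCODE draws farther upstream, and whether these were counted is not stated.

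Pdgfb encodes PDGF-B, the ligand that engages the beta receptor on mesangial cells and pericytes. It lies on chromosome 15 from 79995874 to 80014977. It was the ligand with the highest level in every library, with 69.3, 76.5 and 89.5 RPKM in the controls against 68.5, 95.6 and 116 RPKM in the knockouts. The lowest knockout library lay below all controls and the other two above them, so the groups overlapped. The means were 78.5 ± 10.2 and 93.2 ± 23.6 RPKM; the log2 change was 0.22, with a 95% interval from -0.27 to 0.71 (SE 0.21, adjusted p = 0.519). Endothelial markers, whose cells are a known source of PDGF-B, were called in 0 of 7 cases by limma and in 1, as lower, by limma-voom on recovered reads (median log2 change -0.42). Of the 7, 4 were lower and 1 higher at an unadjusted p under 0.05, and their summed level was 1773 to 2532 RPKM in controls and 1010 to 1668 RPKM in knockouts. Of the 4 tested platelet markers 0 rose and 1 fell. The lower gene was Gp1bb, at 3.22 ± 1.02 RPKM in controls and 0.888 ± 0.440 RPKM in knockouts (limma adjusted p = 0.0291). The platelet chemokine gene Pf4 stood at 0.668 ± 0.217 RPKM in controls and 2.21 ± 1.15 RPKM in knockouts (adjusted p = 0.0582). Pf4 rests on 18, 13 and 19 reads in controls and 32, 83 and 67 in knockouts. Ppbp and Itga2b overlapped between groups, at log2 changes of -0.049 and -0.098. Gp1bb, Ppbp and Itga2b were named after their values were seen. The part of either cell type in the level of Pdgfb was not tested.

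Pdgfc encodes PDGF-C, an alpha receptor ligand with a CUB domain. It lies on chromosome 3 from 81036416 to 81214040. Its level was 24.0, 27.2 and 30.1 RPKM in the 3 controls against 19.1, 11.5 and 12.0 RPKM in the 3 knockouts. Every knockout library was below every control, as for 11.4% of tested genes, and knockout replicate 1 lay nearest to the controls. The means were 27.1 ± 3.05 and 14.2 ± 4.26 RPKM; the log2 change was -0.94, with a 95% interval from -1.42 to -0.46 (SE 0.21, adjusted p = 0.0275). The call was lost without each of control replicates 1 to 3 (adjusted p = 0.0526, 0.0669 and 0.0792) and without knockout replicate 2 or 3 (0.113 and 0.0534), and was kept without knockout replicate 1 (0.00768). Podocyte markers fell in the same libraries, 7 of 9 tested, with a summed level of 2786 to 5338 RPKM in controls and 745 to 1863 RPKM in knockouts, and their part in the fall of Pdgfc was not tested.

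Pdgfd encodes PDGF-D, the other ligand with a CUB domain, which acts through the beta receptor. It lies on chromosome 9 from 6168584 to 6378850. Its level was 13.0, 23.9 and 15.2 RPKM in the 3 controls against 16.1, 18.1 and 18.8 RPKM in the 3 knockouts. All knockout values fell inside the range of the controls, which control replicate 2 widened. The means were 17.4 ± 5.80 and 17.7 ± 1.40 RPKM; the log2 change was 0.070, with a 95% interval from -0.44 to 0.58 (SE 0.22, adjusted p = 0.861), so a change of more than about 1.5-fold in either direction lay outside the interval. The sign of this change reversed under either other scaling and when control 1 or control 3 was left out, and the change was 0.32 with control 2 left out.

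**Figure D1:**
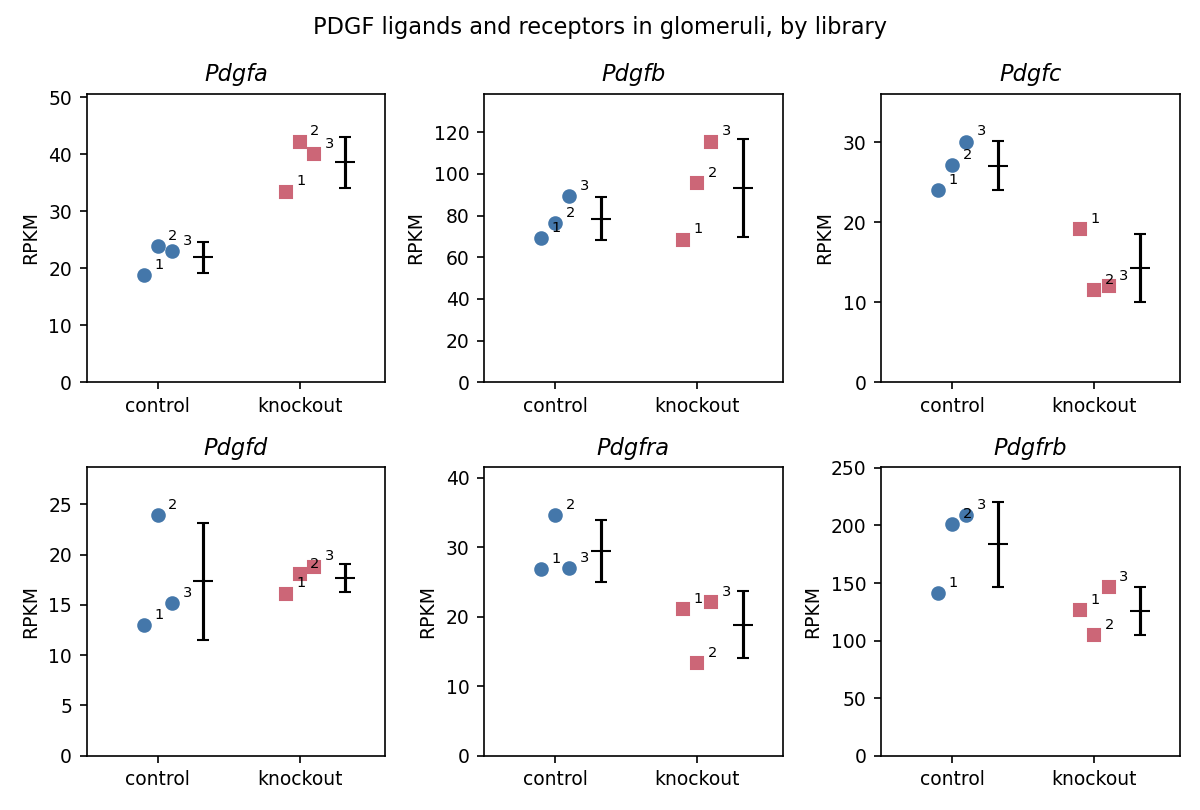
RPKM (y axis, from 0, a scale of its own in each panel) of the 6 PDGF genes in the 3 control libraries (circles) and 3 knockout libraries (squares), with the replicate number beside each point and the mean ± SD as a bar. The knockout points of Pdgfa lie above all controls, at 33.5 to 42.2 RPKM, those of Pdgfc and Pdgfra lie below all controls, and the groups overlap for Pdgfb, Pdgfd and Pdgfrb.

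Pdgfra encodes the alpha receptor, found in the kidney mainly on interstitial fibroblasts and some mesangial cells. It lies on chromosome 5 from 75152292 to 75198215. Its level was 26.9, 34.7 and 27.0 RPKM in the 3 controls against 21.2, 13.3 and 22.1 RPKM in the 3 knockouts. The groups did not overlap, and knockout replicate 2 was the lowest library. The means were 29.5 ± 4.46 and 18.8 ± 4.81 RPKM; the log2 change was -0.66, with a 95% interval from -1.15 to -0.16 (SE 0.21). The unadjusted p was 0.0161 and the adjusted p 0.0835, which missed the threshold of 0.05, as it did under all 15 alternatives (0.0621 to 0.227). With Pdgfa and Pdgfc, it was the third of the 6 members whose groups did not overlap, where 35.1% of all tested genes did not.

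Pdgfrb encodes the beta receptor, a defining receptor of mesangial cells and pericytes. It lies on chromosome 18 from 61045150 to 61085061. It was the member with the highest mean level in both groups, above 98.0% of tested genes in its mean over the 6 libraries. Its level was 141, 201 and 209 RPKM in the 3 controls against 127, 105 and 146 RPKM in the 3 knockouts. Control replicate 1 lay below knockout replicate 3, so the groups overlapped. The means were 184 ± 37.0 and 126 ± 20.7 RPKM; the log2 change was -0.54, with a 95% interval from -1.02 to -0.05 (SE 0.21, adjusted p = 0.132). Over the 15 alternatives the adjusted p ranged from 0.0793 to 0.405, with the log2 change between -0.71 and -0.41.

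The change of each receptor can be set beside markers of the cells that carry it. Mesangial markers fell in 4 of 9 cases with 0 higher and a median log2 change of -0.72, beside 0.097 over all tested genes. Their summed level was 2259 to 3380 RPKM in controls and 1598 to 2129 RPKM in knockouts. Itga8, an integrin of mesangial cells, stood at 226 ± 65.9 and 135 ± 28.7 RPKM (log2 change -0.72, adjusted p = 0.115), and Gata3, a mesangial transcription factor, at 60.9 ± 24.5 and 29.8 ± 6.02 RPKM (-0.97, adjusted p = 0.0641). Of the pericyte and smooth muscle markers, which also mark cells with the beta receptor, 3 of 8 were higher, 0 were lower and 5 did not pass, with a summed level of 175 to 276 RPKM in controls and 301 to 598 RPKM in knockouts. The 3 called genes, Acta2, Cnn1 and Tagln, encode contractile proteins of smooth muscle (the last 2 named after their values were seen). The median log2 change of the 8 was 1.21, with 7 above 0 and 5 higher at an unadjusted limma p under 0.05. Notch3, Cspg4 and Mcam, also named after their values were seen, overlapped between groups at log2 changes of -0.15, 0.11 and 0.29 (adjusted p = 0.645, 0.668 and 0.530). Myh11, named in the same way, stood at 6.72 ± 3.21 and 12.5 ± 2.56 RPKM (0.96, adjusted p = 0.126). Acta2, smooth muscle actin, rose from 20.9 ± 9.63 to 77.2 ± 29.4 RPKM (1.90, adjusted p = 0.0320), a call that 4 of the 6 fits without 1 library did not keep (those lacking control 1, control 3, knockout 2 or knockout 3). Rgs5, a pericyte gene, stood at 9.24 ± 6.16 and 26.2 ± 8.63 RPKM (1.58, adjusted p = 0.0501).

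Of 6 tested fibroblast markers, 4 were higher and 1 lower. Col1a1, a fibrillar collagen gene, rose from 0.737 ± 0.152 to 19.9 ± 9.12 RPKM (3.92, adjusted p = 0.00206). The summed level of this list was 295 to 351 RPKM in controls and 178 to 292 RPKM in knockouts. Most of it came from the lower gene, Pi16, at 279 ± 32.7 and 144 ± 38.8 RPKM (named after its values were seen). Pi16 lost its call in 5 of the 6 fits without 1 library. The other 5 tested markers had a log2 change above 0, so the sum does not describe them. Whether Pi16 marks fibroblasts in this preparation was not tested. The part of these cell types in the receptor levels was not tested.

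Markers of epithelia outside the capillary tuft were listed too. Of 4 parietal epithelium markers 3 rose, with a summed level of 26.8 to 27.7 RPKM in controls and 79.7 to 171 RPKM in knockouts. Of 5 proximal tubule markers 1 rose and 0 fell, and their sums overlapped, at 534 to 1072 and 573 to 1272 RPKM. Of 7 distal tubule and collecting duct markers 0 were called by limma or by limma-voom on recovered reads (adjusted p from 0.0556 to 0.548 in limma), while 5 were higher at an unadjusted p under 0.05 and all 7 had a log2 change above 0. Their median log2 change was 1.45, beside 0.097 over all tested genes, and their summed level was 427 to 1161 RPKM in controls and 980.3 to 2583 RPKM in knockouts. The part of these epithelia in the levels of the PDGF genes was not tested.

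Pdgfrb exceeded Pdgfra 5.26-fold to 7.74-fold in the controls and 5.98-fold to 7.86-fold in the knockouts. The log2 ratio of Pdgfra to Pdgfrb changed by -0.13 between groups, from -2.63 ± 0.29 to -2.76 ± 0.20 (two-sided exact permutation p = 0.5, n = 3 libraries per group, smallest possible p = 0.1). The difference is smaller than the spread between libraries of either group.

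Pdgfb exceeded Pdgfa 3.20-fold to 3.88-fold in the controls and 2.05-fold to 2.89-fold in the knockouts, with no overlap. The log2 ratio of Pdgfb to Pdgfa fell by 0.59, from 1.84 ± 0.14 to 1.25 ± 0.26, and the two-sided exact permutation p of 0.1 is the smallest that 3 against 3 libraries allow.

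Counted together in RPKM, the ligand transcripts differed in makeup between the groups. Pdgfb supplied 50.5% to 56.7% of the summed ligand RPKM in the controls and 49.9% to 62.0% in the knockouts. Pdgfa supplied 14.6% to 15.8% in the controls and 21.5% to 25.2% in the knockouts. Pdgfc supplied 17.9% to 19.2% in the controls and 13.9%, 6.86% and 6.46% in knockout replicates 1 to 3. Pdgfa was below Pdgfc in all 3 controls, at 0.767 to 0.881 of its level, and above it in all 3 knockouts, at 1.75 to 3.68 times its level. Pdgfd varied from 9.61% to 15.8% in the controls and from 10.1% to 11.7% in the knockouts. These shares restate the values of the members given above and carry no test. They also depend on the gene lengths used for RPKM, and the annotation behind those lengths was not stated.

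The summed ligands stood at 145 ± 17.4 RPKM in the controls and 164 ± 24.8 RPKM in the knockouts, and the summed receptors at 213 ± 39.1 and 145 ± 25.2 RPKM. The ratio of summed ligand to summed receptor transcript was 0.744, 0.644 and 0.669 in the controls against 0.929, 1.42 and 1.11 in the knockouts. It was therefore higher in each knockout library than in each control library. These sums were formed after the values of the members were known and carry no test.

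**Figure D2:**
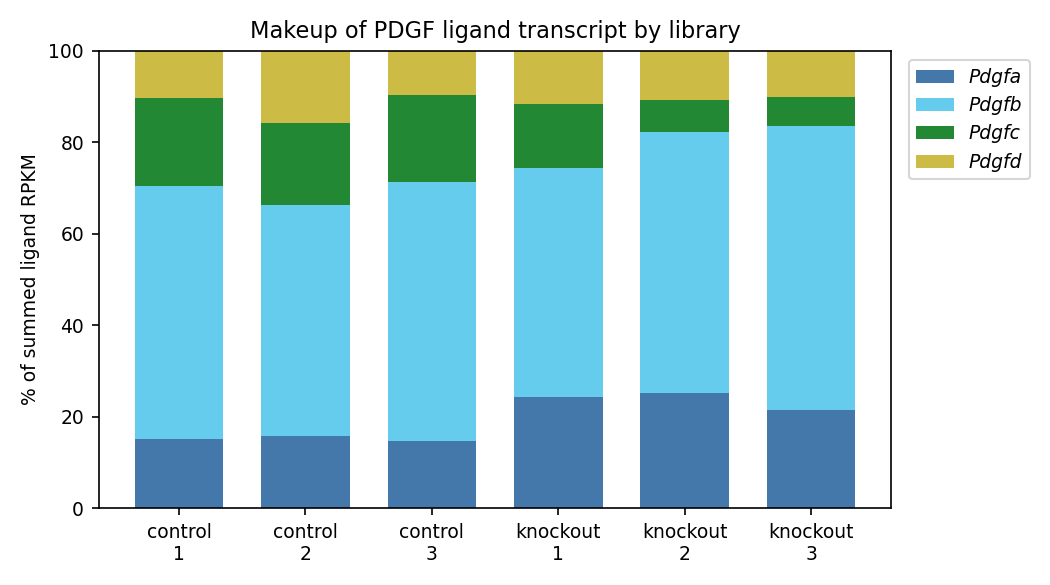
Share of the summed ligand RPKM (y axis, percent) that each PDGF ligand supplied in each of the 6 libraries (x axis), stacked to 100%. The Pdgfa share is 14.6% to 15.8% in controls and 21.5% to 25.2% in knockouts, and the Pdgfc share is smallest in knockout replicates 2 and 3.

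In controls the order of mean levels was Pdgfrb, Pdgfb, Pdgfra, Pdgfc, Pdgfa and Pdgfd. The ranges of Pdgfra and Pdgfc overlapped, as did those of Pdgfa and Pdgfd, and the other neighbours were apart. Pdgfc and Pdgfa were barely so: the lowest Pdgfc library (23.97 RPKM) and the highest Pdgfa library (23.93 RPKM) were within counting error. Pdgfc was the higher in all 3 controls. In knockouts the order was Pdgfrb, Pdgfb, Pdgfa, Pdgfra, Pdgfd and Pdgfc. There Pdgfrb and Pdgfb overlapped in range, though Pdgfrb was the higher in all 3 libraries, and so did Pdgfra with Pdgfd and Pdgfd with Pdgfc, while Pdgfa stood apart from both its neighbours. In control replicate 2 Pdgfa and Pdgfd stood at 23.9 RPKM each, within counting error. The fewest recovered reads of any member in a library were 779, for Pdgfa, with a counting error of 3.58%, and the SD between libraries was 7.90% to 33.4% of the mean.

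**Figure D3:**
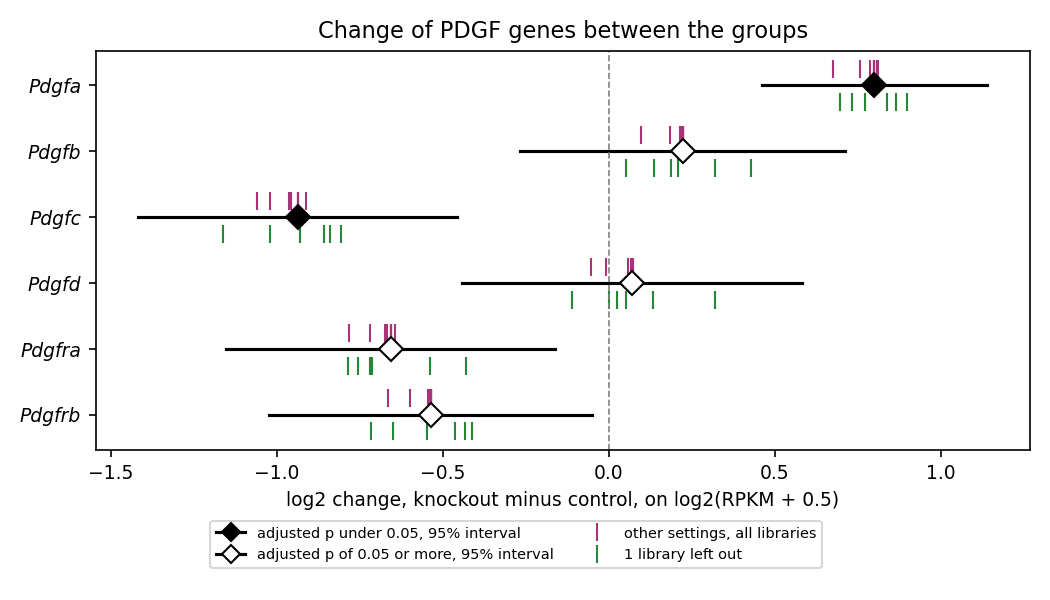
Log2 change from control to knockout (x axis) of each PDGF gene with its 95% interval from limma; filled diamonds have an adjusted p under 0.05. Ticks above each line are other processing settings and ticks below it leave out 1 library: they stay on one side of 0 for all genes but Pdgfd.

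The genes around the PDGF family were described from 5 lists, which hold 65 genes, of which 62 were tested. Of these 9 rose and 4 fell (20.97% called, beside 13.5% of all tested genes), with a median log2 change of 0.12 beside 0.097 over all. Because the lists were chosen with earlier results of these data known, the difference between these shares is no test. By list, 5 of 9 genes that process or bind the ligands were called, 3 of 10 early response genes, 2 of 6 genes for related receptors and ligands, 2 of 26 signalling genes and 1 of 11 attenuating genes.

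Of the 9 genes that process or bind PDGF, 3 rose and 2 fell (median log2 change -0.0080). Plau, urokinase, which can activate PDGF-D, measured 132, 115 and 134 RPKM in the 3 controls against 280, 361 and 259 RPKM in the 3 knockouts. Its log2 change was 1.23 (SE 0.18, adjusted p = 0.00762), and the call held under all 15 alternatives. St14, matriptase, another protease that can activate PDGF-D, rose from 6.37 ± 2.78 to 18.0 ± 6.41 RPKM (1.47, adjusted p = 0.0454, named after its values were seen), and kept the call in 4 of 15 alternatives. Thbs1, thrombospondin, which binds PDGF-B, rose from 19.1 ± 6.09 to 47.1 ± 12.0 RPKM (1.30, adjusted p = 0.0268), a call lost without either of controls 1 and 3 or either of knockouts 2 and 3.

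Plat, tissue plasminogen activator, which activates PDGF-C, stood at 1335 ± 118 RPKM in controls and 752 ± 325 RPKM in knockouts (log2 change -0.90, adjusted p = 0.135, named after its values were seen), and passed the test only without knockout 3, the highest of its group (-1.24, adjusted p = 0.0328). Pcsk5, a convertase that can process PDGF-A, fell from 8.32 ± 0.846 to 5.67 ± 0.0634 RPKM (-0.51, adjusted p = 0.0443), and lost the call without each single library. Nrp1, a co-receptor of several growth factors, fell from 492 ± 118 to 224 ± 48.1 RPKM (-1.13, adjusted p = 0.0314), and lost the call without either of controls 2 and 3 or either of knockouts 1 and 2. The list had 1 higher gene when control 1, control 3 or knockout 2 was left out, and 0 lower genes when control 2, control 3, knockout 1 or knockout 2 was. Podocyte and endothelial cells, whose marker sums were lower in the knockouts, also express Nrp1, and their part was not tested. With no filter on low values, St14, Thbs1, Pcsk5 and Nrp1 all lost their calls.

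Signalling proteins that act directly at the receptors were called in 2 of 26 cases, with a median log2 change of 0.066. Fyn, a kinase of the Src family that also phosphorylates nephrin in podocytes, fell from 49.9 ± 7.64 to 24.2 ± 4.31 RPKM (-1.03, SE 0.17, adjusted p = 0.0116), with all knockout libraries below all controls. Its call was kept in 14 of 15 alternatives and lost under the replicate block (adjusted p = 0.0534). Src itself rose from 8.71 ± 1.14 to 16.4 ± 3.98 RPKM (0.86, SE 0.19, adjusted p = 0.0284). This call was lost under the replicate block and without each single library except knockout replicate 3. The adaptor Gab1 (log2 change -0.42, adjusted p = 0.0754) and the kinase Akt2 (-0.36, 0.0801) missed the threshold. With median-ratio size factors the list had 4 lower genes instead of 1, Gab1 and Akt2 among them.

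Of 11 genes that attenuate receptor signalling, 0 rose and 1 fell. It was Spry4, a Sprouty inhibitor that growth factor signalling induces, which fell from 18.9 ± 3.21 to 11.0 ± 0.723 RPKM (-0.75, SE 0.15, adjusted p = 0.0216). The call was lost without either of controls 2 and 3 or either of knockouts 1 and 2. The ubiquitin ligases Cbl and Cblb and the receptor phosphatase gene Ptprj missed the threshold, at log2 changes of 0.57, -0.46 and 0.45.

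Of 12 listed early response genes that PDGF can induce, 10 were tested, and 3 of them rose and 0 fell (median log2 change 0.70). Ccl2, a monocyte chemoattractant, measured 0.183, 0.260 and 0.0319 RPKM in the 3 controls against 30.7, 102 and 64.6 RPKM in the 3 knockouts (6.51, SE 0.40, adjusted p = 0.000970). Cxcl1, a neutrophil chemokine, stood at 7.56 ± 3.76 RPKM in controls and 55.0 ± 26.0 RPKM in knockouts (2.76, SE 0.43, adjusted p = 0.00901). The transcription factor gene Myc went from 1.98 ± 0.841 to 12.6 ± 3.37 RPKM (2.41, SE 0.29, adjusted p = 0.00398). These 3 calls held under all 15 alternatives. Ccl2 rests on 6, 11 and 1 reads in the controls and passed the filter through the knockouts (means 0.158 and 65.7 RPKM). Its log2 change ranged from 5.70 to 8.69 over the alternatives, so its size depends on the setting. Egr1, an immediate-early transcription factor gene, stood at 21.4 ± 8.62 and 61.3 ± 33.0 RPKM (1.43, adjusted p = 0.0584). Many stimuli other than PDGF induce these genes. Macrophage markers rose in 7 of 7 cases in the same libraries, with a summed level of 46.96 to 53.07 RPKM in controls and 395 to 936 RPKM in knockouts, among them Emr1, the F4/80 gene, from 0.151 ± 0.0303 to 2.22 ± 1.08 RPKM (1.98, adjusted p = 0.00901). Emr1 also passed the filter through the knockouts. The part of macrophages in the change of the early genes was not tested.

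The PDGF receptors belong to the class III receptor tyrosine kinases. Of 6 tested genes for the other receptors of this class and their ligands, 2 rose and 0 fell. Kit, the receptor of stem cell factor, rose from 2.37 ± 0.180 to 5.17 ± 1.10 RPKM (0.97, SE 0.18, adjusted p = 0.0171). This call was lost without knockout replicate 1 or 2, under quantile normalization and under the replicate block. Il34, a ligand of the CSF1 receptor, rose from 26.5 ± 2.77 to 49.6 ± 12.8 RPKM (0.87, SE 0.19, adjusted p = 0.0274), a call lost when any control or knockout 2 was left out. Csf1r, the CSF1 receptor of macrophages, overlapped between groups, at 9.48 ± 4.11 and 14.6 ± 4.34 RPKM (0.63, adjusted p = 0.231), as did Flt3l, the FLT3 ligand, at 16.4 ± 1.81 and 12.9 ± 4.29 RPKM (-0.37, adjusted p = 0.306).

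**Figure D4:**
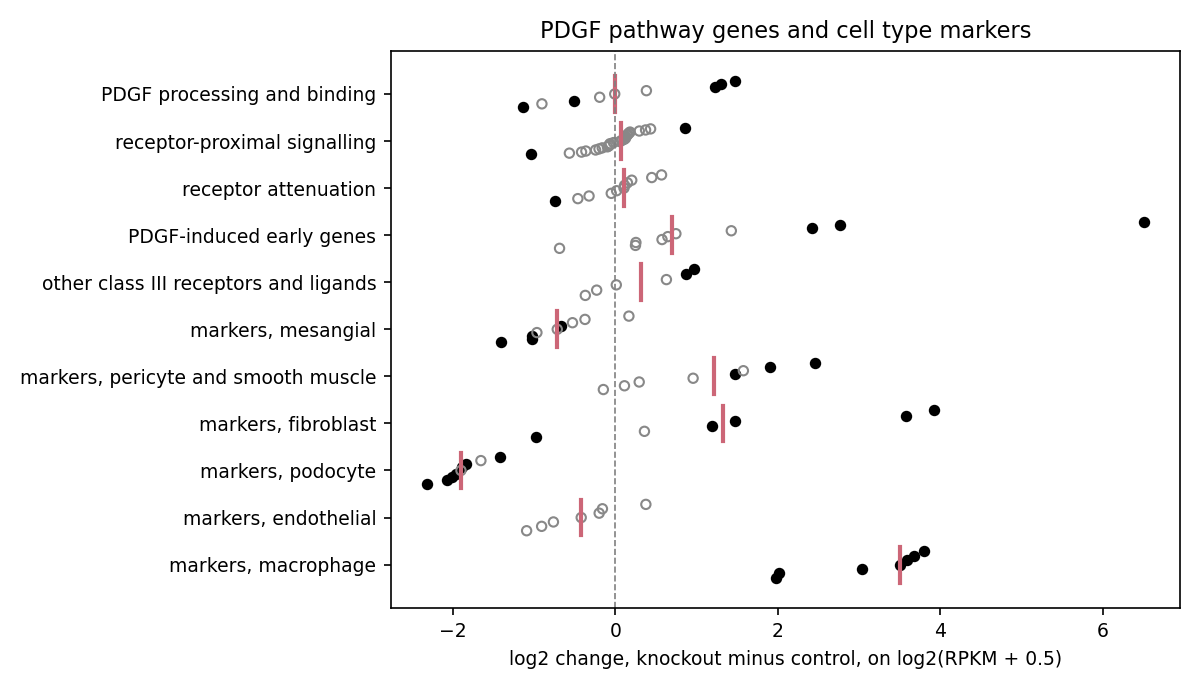
Log2 change from control to knockout (x axis) of each tested gene in the PDGF pathway lists and in 6 cell type marker lists (rows); filled points have an adjusted p under 0.05 and the vertical bar is the list median. Signalling and attenuation genes gather near 0, and Ccl2 at 6.51 lies farthest out. The medians of the mesangial, podocyte and endothelial markers are below 0, and that of the processing and binding genes is just below it (-0.0080).

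The genes whose log2 profiles over the 6 libraries were most like each member were found by Pearson r, as a description, since the libraries form a pair of groups and share their preparation. For Pdgfrb they were Agtr1a, the angiotensin II receptor gene (r = 0.995), Adamts5, a matrix protease gene (0.994), and Afap1l1 (0.993). Agtr1a stood at 199 ± 43.5 RPKM in controls and 132 ± 19.0 RPKM in knockouts (log2 change -0.58, adjusted p = 0.113). For Pdgfra they were Thra, a thyroid hormone receptor gene (0.990), St8sia4 (0.990) and Tspan7 (0.989).

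For Pdgfa they were Ptbp1, a splicing regulator (0.996), Trim6 (0.996) and Fblim1 (0.995), and for Pdgfc Mirlet7a-1 (0.997), Abcb10 (0.993) and Calm3 (0.991). Fblim1, which encodes a filamin-binding protein, rose from 6.49 ± 1.38 to 18.9 ± 5.22 RPKM (1.45, adjusted p = 0.0119). Mirlet7a-1 rests on 3, 5 and 4 recovered reads in the controls and 2, 0 and 0 in the knockouts, and passed the filter through the controls (0.963 and 0.157 RPKM), so its r is not a reliable likeness. Pdgfb was most like Rras, a small GTPase gene (0.994), Cdkn2aipnl (0.993) and Trim24 (0.965), and Pdgfd like Elf1 (0.997), Dcaf7 (0.996) and Ncoa2 (0.994). With 6 libraries high values are frequent: r was above 0.95 for 472 genes with Pdgfa, 136 with Pdgfrb, 96 with Pdgfra, 55 with Pdgfd, 22 with Pdgfc and 11 with Pdgfb.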

How the data were processed

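Glomerular RNA of 3 control and 3 knockout libraries was sequenced. The authors deposited an RPKM value for every gene in every library. The tools in the submitters' processing notes are FastQC, STAR, featureCounts and edgeR, and the build is mm10; how they were set, which annotation was counted and whether strand was used is not given in the sources used here.

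RPKM values of each gene were whole multiples of 1 read, so reads and gene lengths were recovered (100% of 24062 rows whole within 0.001 read). Each recovered length is the smallest that solves the equation, so reads can be too few by a whole factor. In 27 rows a date stands in place of a symbol; these rows were left out, and named genes held 99.4% of the reads. The counted reads per library are in the report, and counting errors cover sampling of reads only.

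The 13912 genes whose mean reached 0.5 RPKM were tested on log2(RPKM + 0.5) with limma 3.58.1 in R 4.3.3, with a mean-variance trend, two-sided, with no covariate and Benjamini-Hochberg adjustment over all tested genes at 0.05. Log2 changes are on this scale, which understates changes of low genes, and folds are ratios of mean RPKM. The fit was tested on simulated data. Ratios were tested by exact permutation (scipy 1.17.1). Alternatives were other pseudocounts, filters and scalings, no trend, a replicate block, limma-voom on recovered reads (chosen after seeing the data) and leaving out each library. The edgeR alternative on recovered reads was not run, and limma-voom on those reads was used in its place.

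The members and lists were chosen with earlier results of these data known. Genes named are the members, Klf4, the 4 genes of each pathway list with the smallest p, the 3 most alike genes per member, and Itga8, Gata3, Acta2, Rgs5, Col1a1, Pecam1, Nphs1, Emr1 (listed as Adgre1) and Pf4. Pecam1 had a log2 change of -0.20 (limma adjusted p = 0.617) and Nphs1 of -2.08 (0.0254). Promoter windows were from RefSeq (GRCm38.p6), matched by symbol.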

Additional observations from a re-analysis of the deposited data

How the results depend on the processing

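Across 15 alternatives Pdgfb, Pdgfra and Pdgfrb kept their direction and did not pass the threshold in any. Pdgfa kept its call except without knockout replicate 2 (log2 change 0.70 to 0.90 with 1 library left out). Pdgfc lost its call in 5 of the 6 fits with 1 library left out (-1.16 to -0.81) and under the replicate block (-0.94, adjusted p = 0.0797). Pdgfd turned sign under median-ratio size factors (-0.054), quantile normalization (-0.0074) and without control replicate 1 or 3, ranging from -0.11 to 0.32 with 1 library left out. Klf4 turned sign under median-ratio size factors (-0.11) and quantile normalization (-0.0098), and ranged from -0.35 to 0.24 with 1 library left out. The cause of these changes was not tested. Over all tested genes the median log2 change was 0.097, and -0.048 under quantile normalization and -0.019 under median-ratio size factors.

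Of all tested genes 1389 were called higher and 484 lower. With 1 library left out these counts were 474 to 1497 and 124 to 617, lowest without knockout replicate 2. They were 849 and 798 under quantile normalization, 1053 and 744 under median-ratio size factors and 632 and 179 under the replicate block, and 841 genes were higher with a filter at 2 RPKM, where fewer genes were tested. Pathway genes called were 4 to 8 higher and 1 to 6 lower with 1 library left out, 5 higher and 1 lower under the replicate block, 2 lower with no filter and 7 lower under median-ratio size factors. With limma-voom on recovered reads 1339 genes were higher and 453 lower. With no filter Acta2, Nphs1 and Pi16 lost their calls, and Pf4, Egr1, Rgs5, Cblb and Flt3l each gained one in 1 of the 6 fits without a library.

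No pairing by replicate number was visible: deviations from the group means correlated at 0.17, -0.22 and -0.46 for numbers 1 to 3. Over all pairs of a control and a knockout library they ranged from -0.46 to 0.50. With 3 libraries per group this cannot settle whether the libraries were paired, and the block result is a check only. The exact tests of the ratios cannot go below p = 0.1.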
